A study of Solanum lycopersicum with 9 samples.

Results

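Gibberellins are diterpenoid plant hormones, and their level in a tissue is set late in the pathway by 3 classes of 2-oxoglutarate-dependent oxidases. Gibberellin 20-oxidases (GA20ox) make the precursors, gibberellin 3-oxidases (GA3ox) turn the precursors into the bioactive hormones, and gibberellin 2-oxidases (GA2ox) inactivate bioactive forms and precursors. In tomato, gibberellins act with auxin in fruit set and early fruit growth, and in many plants bioactive gibberellin lowers the transcripts of its own 20- and 3-oxidase genes and raises those of 2-oxidase genes. The 10 genes described here are GA20ox1 to GA20ox4, GA3ox1 and GA3ox2, and GA2ox1, GA2ox2, GA2ox4 and GA2ox5 of tomato, chosen by gene identifier among 34075 genes of the count table. All 10 identifiers were present in it. 8 of them had enough counts to be tested.

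RNA was sequenced from locular tissue, the soft tissue around the seeds, of fruits taken 6 days after anthesis from greenhouse plants of the cultivar Micro-Tom. There were 3 libraries of the edited line c2.11, 3 of the edited line c2.5 and 3 of wild type (WT). c2.11 and c2.5 are CRISPR lines of SlZFP2, a zinc finger transcription factor. Each library was a pool of tissue from 6 fruits with the developing seeds removed, and the series' text calls the 3 libraries of a genotype biological replicates. Nothing in the labels gives the edited bases, the zygosity or the number of plants behind a pool, and each genotype is 1 line. Where pools of a genotype shared plants, p-values reflect differences among pools alone.

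The libraries held 19963325 to 20727310 counts. SlZFP2 itself (Solyc07g053570.4) had 34, 49 and 30 counts in c2.11, 31, 15 and 30 in c2.5 and 21, 13 and 11 in WT. By the test used below for the oxidases, SlZFP2 was called higher than in WT in c2.11 (2.06-fold, edgeR adjusted p = 0.0190). In c2.5 it was not called (1.40-fold, edgeR adjusted p = 0.276). For both lines as 1 contrast it passed narrowly (1.70-fold, edgeR adjusted p = 0.0487). CRISPR edits can leave transcript amounts as they were, so these values do not check the labels. On the first principal component of all tested genes the line libraries lay apart from the WT libraries, and c2.5 replicate 2 lay farthest out on the second. Without that library no oxidase gained or lost a call. The summed level of 4 locule and ovule identity genes was 641 to 670 CPM (counts scaled to a common library size, TMM-normalized) in c2.11, 623 to 643 in c2.5 and 543 to 574 in WT, and none of the 4 was at 0. The most abundant, MBP3, averaged 386 in c2.11, 378 in c2.5 and 351 in WT and was not called in either line. TAGL1 was called higher in c2.11 (1.40-fold) and c2.5 (1.33-fold), as was AGL11 (1.16-fold and 1.18-fold). TAG1 was called higher in c2.11 alone (1.47-fold). The integument marker INO had no count in any library. The summed level of 4 epidermis markers was 73.9 to 107 normalized CPM in c2.11, 74.1 to 84.4 in c2.5 and 53.1 to 61.4 in WT, and none of these 4 was at 0 in a genotype. Within that list CD1 averaged 51.9 normalized CPM in c2.11, 38.6 in c2.5 and 21.5 in WT, while CD2, with 31.7 in c2.11, 35.4 in c2.5 and 32.6 in WT, was not called in either line. MIXTA-like was called higher in c2.11 (1.39-fold, edgeR adjusted p = 0.0188) and in c2.5 (1.41-fold, edgeR adjusted p = 0.0167). CER6 was too scarce to test. The phloem marker SUT1 had 24.4 to 28.1 normalized CPM in c2.11, 25.3 to 27.6 in c2.5 and 14.6 to 26.4 in WT. The locule and epidermis sums thus moved with genotype, as did most gibberellin oxidases below, and their part in those results was not tested. In bulk tissue, fewer cells of a type cannot be told apart from less RNA per cell.

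Both edited lines held more transcript than WT of most oxidases, in synthesis and inactivation classes alike. For both lines as 1 contrast, 7 of the 10 genes rose and GA2ox2 fell (edgeR quasi-likelihood test, Benjamini-Hochberg adjusted p under 0.05 over 19358 genes). The remaining 2, GA20ox4 and GA3ox2, were too scarce to test. Calls were frequent in the whole table, where 28.5% of tested genes were higher and 28.6% lower by the same rule. With total count scaling 55.6% of tested genes were higher and 15.2% lower, and the 8 calls of oxidases kept their directions. With TMM scaling, 5 of the 10 genes were at least 2-fold higher, beside 7.43% of tested genes. That number depends on scaling, since GA2ox1 was 1.79-fold higher with TMM and 2.17-fold higher with total count scaling. The share of tested genes at least 2-fold higher was not computed for total count scaling. The median log2 fold change was 1.45 over the 8 tested oxidases and 0.01 over all tested genes. GA3ox1 passed the filter on low counts only through the lines, where it is high, so these counts are a description and no evidence of a shared change. All 6 line libraries lay above all WT libraries for 6 of the 10 genes, beside 24.6% of tested genes, and below them for 1, beside 24.9%. Both lines are compared with the same 3 WT libraries.

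**Figure D1:**
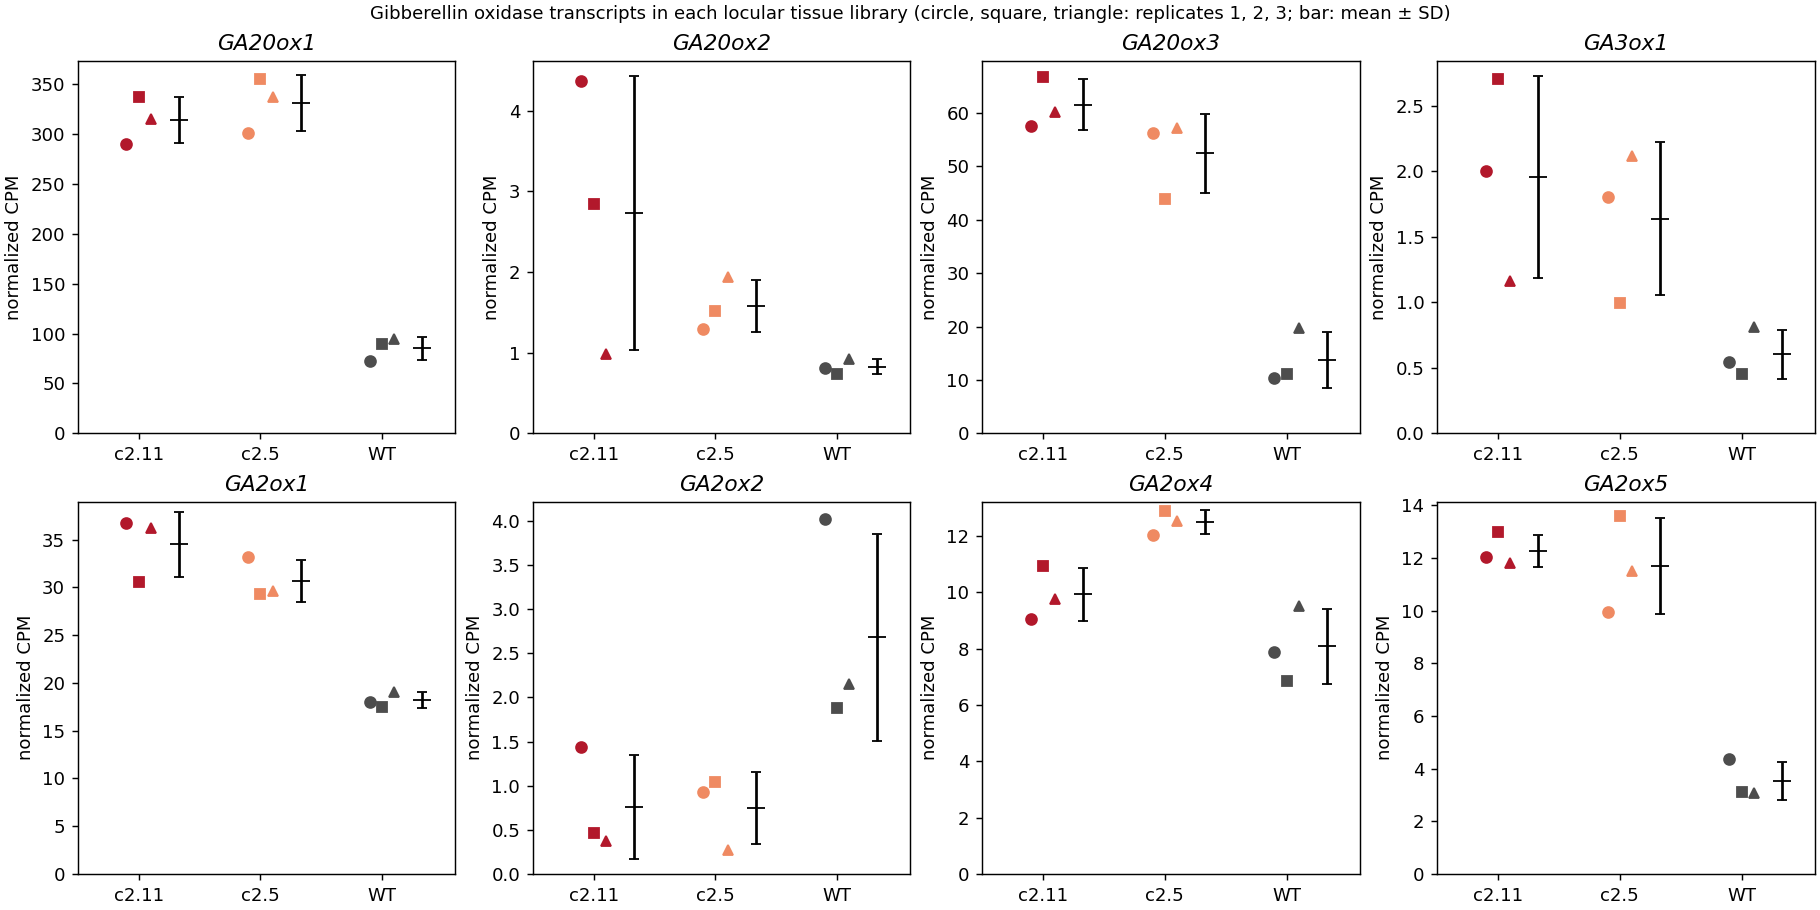
Normalized CPM (vertical axes, each from 0) of the 8 tested gibberellin oxidase genes in each library of c2.11, c2.5 and WT, with the mean and SD of 3 libraries beside the points. The line libraries lie above every WT library for 6 genes, below every WT library for GA2ox2, and overlap WT for GA2ox4 through c2.11.

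The GA20ox genes, whose enzymes carry out the successive oxidations that form the direct precursors of bioactive gibberellins, included the 2 largest increases of the set, GA20ox3 and GA20ox1. GA20ox1 (Solyc03g006880.3, chromosome 3) had 290, 337 and 315 normalized CPM in c2.11, 301, 355 and 337 in c2.5 and 72.4, 89.2 and 94.1 in WT. The line libraries formed 1 tight range that lay far above WT, and the ranges of the lines overlapped. GA20ox1 was 3.68-fold higher in c2.11 than in WT, a log2 change of 1.88 ± 0.10 (SE, edgeR adjusted p = 7.52e-08). In c2.5 it was 3.88-fold higher than in WT (log2 1.96 ± 0.10, edgeR adjusted p = 6.58e-08). By its log2 change in both lines together, 1.92, it stood at rank 321 from the highest of 19358 tested genes.

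GA20ox3 (Solyc11g072310.2, chromosome 11) encodes another 20-oxidase and moved by a similar factor. It had 57.5, 66.8 and 60.2 normalized CPM in c2.11, 56.3, 44.0 and 57.2 in c2.5 and 10.4, 11.1 and 19.8 in WT. WT replicate 3 was the highest of its genotype and still lay below every line library. The log2 change was 2.16 ± 0.24 in c2.11 (4.48-fold, edgeR adjusted p = 0.000207) and 1.93 ± 0.24 in c2.5 (3.82-fold, edgeR adjusted p = 0.00042). Both lines together gave 2.05 ± 0.22 (edgeR adjusted p = 0.000156), rank 265 from the highest of all tested genes.

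GA20ox2 (Solyc06g035530.3, chromosome 6), the third 20-oxidase detected, was scarce and uneven. It had 94, 62 and 21 counts in c2.11, 28, 32 and 42 in c2.5 and 15, 13 and 16 in WT, or 4.37, 2.84 and 0.980 normalized CPM in c2.11, 1.30, 1.51 and 1.94 in c2.5 and 0.816, 0.738 and 0.928 in WT. Every line library lay above WT, but c2.11 replicate 3 did so only narrowly while c2.11 replicate 1 was the highest of all. The coefficient of variation among the c2.11 pools was 62.2%, where counting error alone would give 13.0%. The log2 change was 1.72 ± 0.47 in c2.11 (3.29-fold, edgeR adjusted p = 0.0100) and passed the threshold. In c2.5 it was 0.93 ± 0.49 (edgeR adjusted p = 0.141), with a 95% interval of -0.16 to 2.02, and missed it.
That c2.5 result passed without c2.11 replicate 3 (edgeR adjusted p = 0.0159), with only c2.5 and WT in the fit (0.0150) or with total count scaling (0.0465), and its adjusted p ran from 0.0150 to 0.309 over 16 alternatives. For both lines together the change of 1.32 ± 0.43 passed (edgeR adjusted p = 0.0231) but did not without WT replicate 1 (0.0749), 2 (0.0804) or 3 (0.0592), within a range of 0.000306 to 0.0804 over 15 alternatives.

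GA20ox4 (Solyc01g093980.3, chromosome 1) was at the edge of detection. It had 0, 1 and 0 counts in c2.11, 1, 0 and 0 in c2.5 and 1, 0 and 1 in WT, and 3 counts in a library correspond to 0.138 to 0.174 normalized CPM. No difference was detectable at this depth, and these limits cover counting error only.

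The total of the 20-oxidase counts differed between lines and WT, while the share of GA20ox1 in each line overlapped that in WT. The summed 20-oxidase level was 352 to 406 normalized CPM in c2.11, 358 to 401 in c2.5 and 83.7 to 115 in WT. GA20ox1 supplied 82.4 to 83.7% of these counts in c2.11, 83.9 to 88.7% in c2.5 and 81.9 to 88.3% in WT, so each line overlapped WT. The lines lay apart from each other only narrowly, and GA20ox1 itself was not called between them (edgeR adjusted p = 0.785). That gap is a description only. The small share of GA20ox2 was 0.260 to 1.24% in c2.11, 0.362 to 0.489% in c2.5 and 0.730 to 0.975% in WT, with c2.5 below WT in every library. Since counts are not scaled by transcript length, the share itself does not rank the genes by abundance, and only its change between libraries can be read.

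Of the GA3ox genes, whose enzymes make the final step to bioactive hormone, only GA3ox1 was detected. GA3ox1 (Solyc06g066820.4, chromosome 6) had 43, 59 and 25 counts in c2.11, 39, 21 and 46 in c2.5 and 10, 8 and 14 in WT, or 2.00, 2.71 and 1.17 normalized CPM in c2.11, 1.81, 0.992 and 2.12 in c2.5 and 0.544, 0.454 and 0.812 in WT. All line libraries lay above WT, and the lines overlapped over most of their range. The log2 change was 1.69 ± 0.40 in c2.11 (3.23-fold, edgeR adjusted p = 0.00287) and 1.44 ± 0.40 in c2.5 (2.71-fold, edgeR adjusted p = 0.00947). Among the c2.11 pools its coefficient of variation was 39.3%, against 15.4% from counting alone, and among WT pools it was 30.8%, against 30.6%. GA3ox2 (Solyc03g119910.4, chromosome 3), the other 3-oxidase, had no count in any of the 9 libraries, which allows up to 0.138 to 0.174 normalized CPM per library (3 counts).

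**Figure D2:**
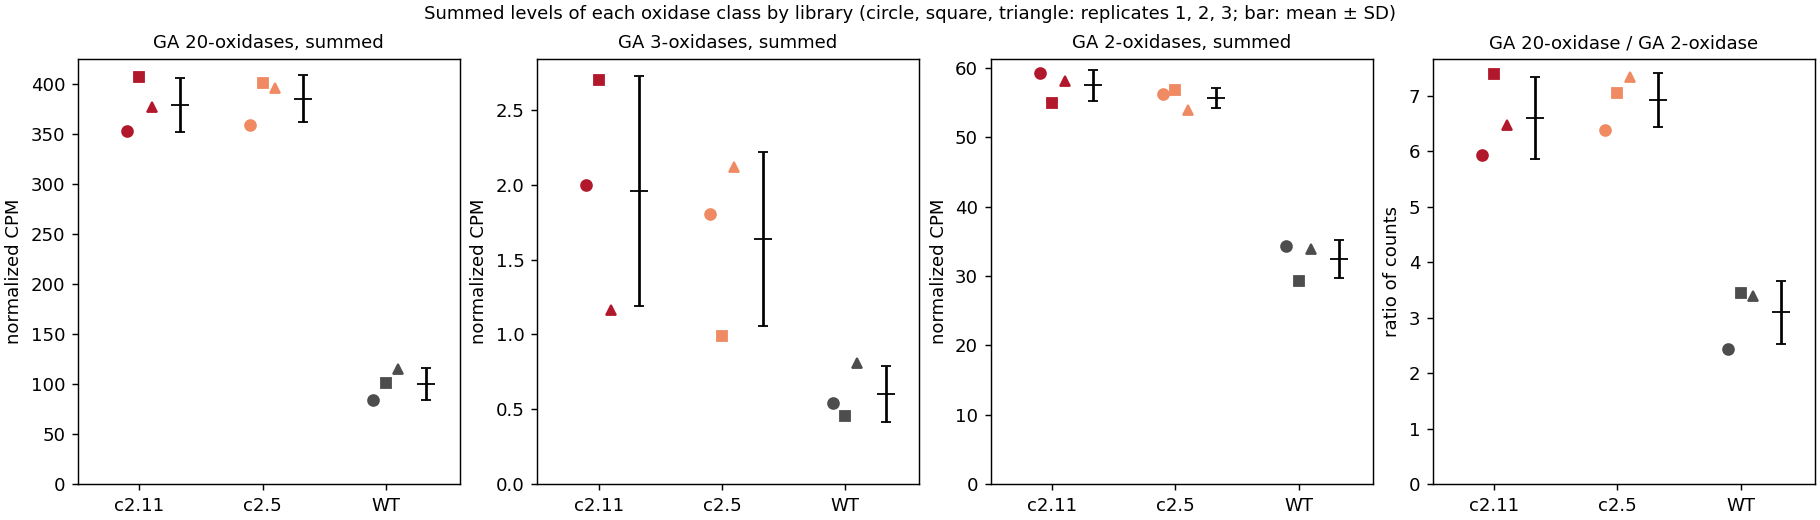
Summed normalized CPM of the 20-oxidase, 3-oxidase and 2-oxidase genes, and the ratio of 20-oxidase to 2-oxidase counts, in each library of c2.11, c2.5 and WT, with mean and SD of 3 libraries. Each sum and the ratio was higher in every line library than in every WT library.

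The GA2ox genes, whose enzymes inactivate gibberellins, split into 3 that rose and 1 that fell. GA2ox1 (Solyc05g053340.4, chromosome 5) had 36.7, 30.5 and 36.2 normalized CPM in c2.11, 33.2, 29.3 and 29.6 in c2.5 and 18.1, 17.4 and 19.1 in WT. WT pools were closely alike and all line pools lay well above them. Its log2 change was 0.92 ± 0.08 in c2.11 (1.90-fold, edgeR adjusted p = 1.56e-06) and 0.76 ± 0.09 in c2.5 (1.69-fold, edgeR adjusted p = 1.02e-05).

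GA2ox4 (Solyc07g061720.3) and GA2ox5 (Solyc07g061730.3), both coding for 2-oxidases, lie side by side on chromosome 7, with 0 rows between them in the count table and 0 genes between them in the RefSeq assembly SLM_r2.1. GA2ox5 had 12.0, 13.0 and 11.8 normalized CPM in c2.11, 9.97, 13.6 and 11.5 in c2.5 and 4.35, 3.12 and 3.07 in WT. Every line library was above WT, and the lines overlapped. The log2 change was 1.80 ± 0.15 in c2.11 (3.48-fold, edgeR adjusted p = 7.54e-07) and 1.73 ± 0.15 in c2.5 (3.32-fold, edgeR adjusted p = 1.18e-06).

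GA2ox4 moved far less than its neighbour. It had 9.07, 10.96 and 9.75 normalized CPM in c2.11, 12.1, 12.9 and 12.5 in c2.5 and 7.88, 6.87 and 9.51 in WT. c2.5 lay above WT without overlap, whereas c2.11 replicate 1 fell below WT replicate 3. The change passed in c2.5 (log2 0.63 ± 0.12, 1.55-fold, edgeR adjusted p = 0.000742) and missed the threshold in c2.11 (0.30 ± 0.12, 1.23-fold, edgeR adjusted p = 0.0543). The c2.11 result passed without c2.11 replicate 1 (edgeR adjusted p = 0.0437) or WT replicate 3 (0.00984), with no low-count filter (0.0456) and with total count scaling (0.000938), in a range of 0.000938 to 0.195 over 16 alternatives. The count ratio of GA2ox5 to GA2ox4 in the same library was 1.18 to 1.33 in c2.11, 0.827 to 1.05 in c2.5 and 0.323 to 0.552 in WT, and the 3 ranges did not overlap. This ratio does not depend on library scaling, but reads that fit both neighbours could be split between them by the counting, whose settings no label states.

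GA2ox2 (Solyc07g056670.3, chromosome 7), also a 2-oxidase gene, went the other way. It had 31, 10 and 8 counts in c2.11, 20, 22 and 6 in c2.5 and 74, 33 and 37 in WT, or 1.44, 0.458 and 0.373 normalized CPM in c2.11, 0.928, 1.04 and 0.277 in c2.5 and 4.02, 1.87 and 2.15 in WT. All line libraries lay below WT, although c2.11 replicate 1 came close to the lowest WT library and WT replicate 1 stood well above the other WT libraries. The log2 change in both lines together was -1.83 ± 0.47 (3.55-fold lower, edgeR adjusted p = 0.0075), and it stayed past the threshold in 14 alternatives, with a highest adjusted p of 0.0397. The gene was too scarce for the filter of 1 CPM in 6 libraries.
By line, GA2ox2 fell in c2.11 (log2 -1.82 ± 0.57, edgeR adjusted p = 0.0212) and in c2.5 (-1.84 ± 0.57, edgeR adjusted p = 0.0222). Without c2.11 replicate 1 the level in c2.11 was 6.37-fold lower than in WT, against 3.53-fold with all libraries. The c2.11 call ended without c2.11 replicate 2 (0.0759), c2.11 replicate 3 (0.0671) or WT replicate 1 (0.0703), in a range of 0.00146 to 0.0759. The c2.5 call ended without c2.5 replicate 3 (0.0560) or WT replicate 1 (0.0716), in a range of 0.00203 to 0.0716.

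**Figure D3:**
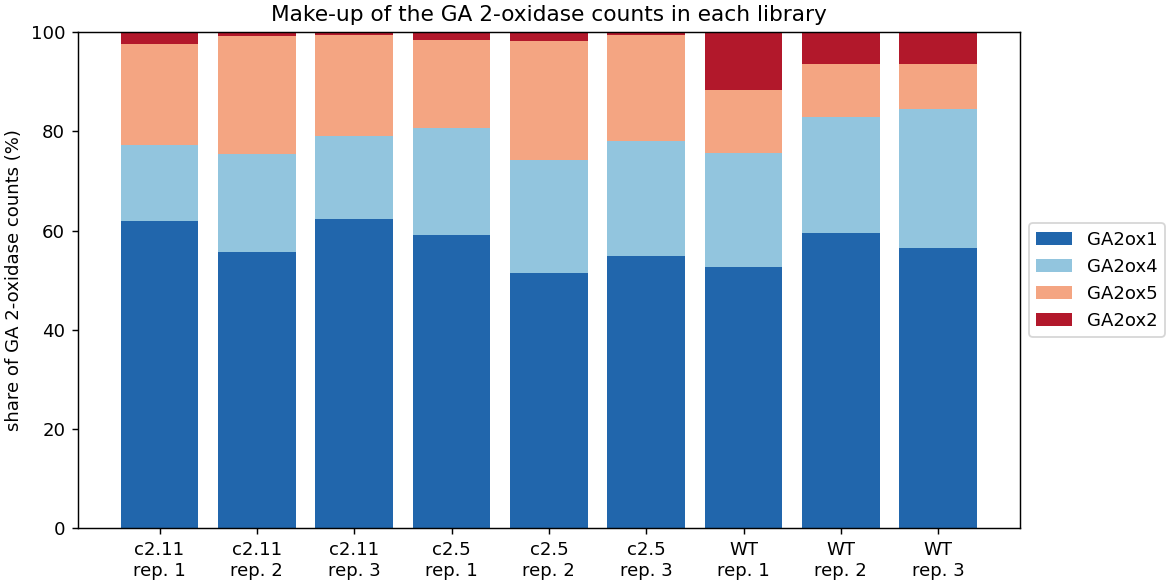
Percentage of the summed GA2ox counts that came from GA2ox1, GA2ox4, GA2ox5 and GA2ox2 in each library of c2.11, c2.5 and WT. GA2ox2 gave 6.35 to 11.7% of the counts in WT and at most 2.43% in a line library, while GA2ox5 gave 9.09 to 12.7% in WT and at least 17.8% in a line library.

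The 2-oxidase counts therefore changed in make-up as well as in total. Their sum was 54.9 to 59.3 normalized CPM in c2.11, 53.9 to 56.8 in c2.5 and 29.3 to 34.3 in WT. GA2ox5 made up 20.3 to 23.6% of it in c2.11, 17.8 to 23.9% in c2.5 and 9.09 to 12.7% in WT, and the share of GA2ox2 was 0.642 to 2.43% in c2.11, 0.513 to 1.83% in c2.5 and 6.35 to 11.7% in WT. GA2ox4 made up 15.3 to 19.9% in c2.11, 21.5 to 23.2% in c2.5 and 23.0 to 28.1% in WT. Its share in c2.11 thus lay below c2.5 and WT, while c2.5 overlapped WT. The share of GA2ox1 was 55.6 to 62.3% in c2.11, 51.5 to 59.1% in c2.5 and 52.6 to 59.5% in WT, with overlapping ranges. Counts of 20-oxidase genes per count of a 2-oxidase gene numbered 5.94 to 7.40 in c2.11, 6.38 to 7.34 in c2.5 and 2.44 to 3.45 in WT. That ratio is free of library scaling, and it is a ratio of counts, not of enzyme or hormone.

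No oxidase was called in the direct comparison of the edited lines. For c2.11 against c2.5, 0 of the 10 genes passed the threshold in edgeR and 0 in DESeq2, while 1.29% of all tested genes were called in edgeR. At an unadjusted p under 0.05, 1 of the 10 genes, GA2ox4, differed, beside 2789 of 19358 tested genes. GA2ox4 was lower in each c2.11 library than in any c2.5 library, with a log2 difference of -0.33 ± 0.12 and a 95% interval of -0.58 to -0.08 (edgeR adjusted p = 0.206). GA20ox3 was higher in each c2.11 library than in any c2.5 library, but only narrowly. Its normalized CPM was 57.5 in c2.11 replicate 1 and 57.2 in c2.5 replicate 3. The log2 difference of 0.23 ± 0.22 had an interval of -0.29 to 0.74 (edgeR adjusted p = 0.696). The share of all tested genes with line ranges apart in this way was not computed, so these separations are a description only.

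The intervals for a difference between the lines varied in width from gene to gene. For GA20ox1 the 95% interval of the log2 difference, c2.11 minus c2.5, was -0.29 to 0.14, for GA2ox5 it was -0.22 to 0.36 and for GA2ox1 it was -0.01 to 0.34. It was wider at -0.16 to 1.73 for GA20ox2, -0.49 to 0.99 for GA3ox1 and -1.39 to 1.44 for GA2ox2. A line difference of 2-fold in either direction lay outside the interval for GA20ox1, GA20ox3, GA3ox1 and the GA2ox genes other than GA2ox2. For GA2ox2 it lay inside in both directions, and for GA20ox2 a 2-fold higher level in c2.11 lay inside.

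**Figure D4:**
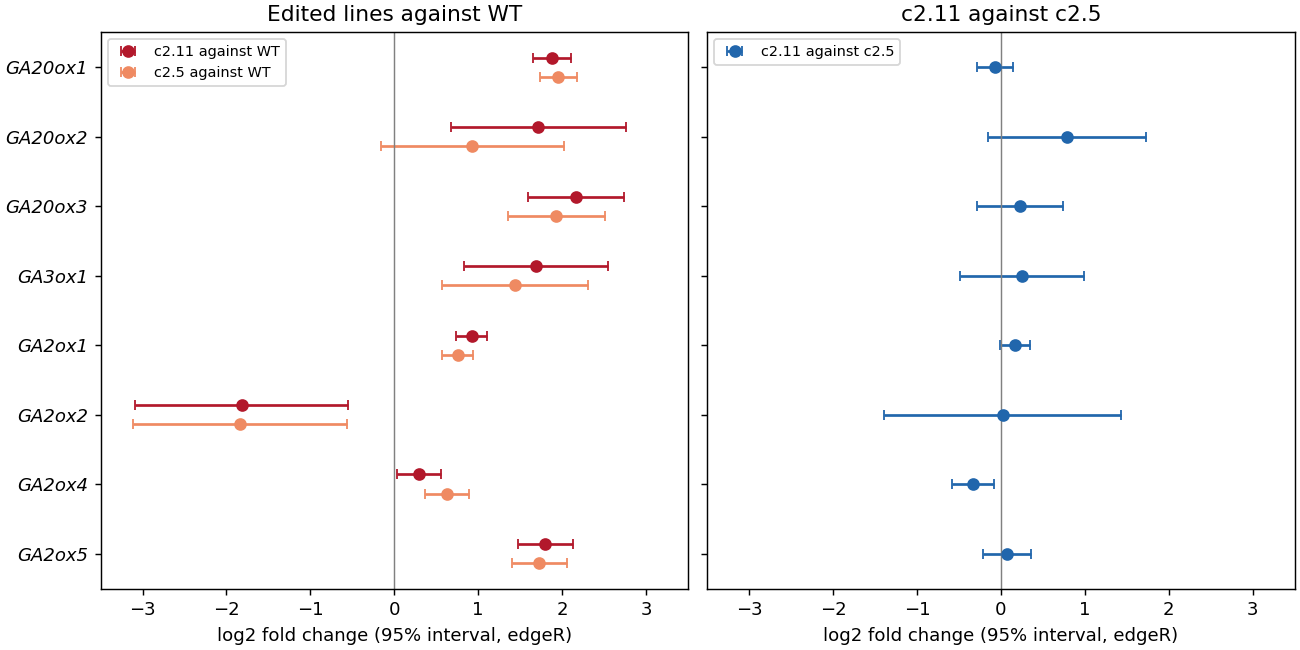
Log2 fold changes (horizontal axes) with 95% intervals from the edgeR fit for the 8 tested genes, c2.11 and c2.5 against WT on the left and c2.11 against c2.5 on the right. In the left panel 7 genes lie above 0 in both lines and GA2ox2 below, with only the c2.5 interval of GA20ox2 crossing 0, and in the right panel only the interval of GA2ox4 excludes 0.

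By line, 7 of the 10 genes passed in each comparison with WT, 6 higher and 1 lower. In c2.11 these were the tested oxidases other than GA2ox4, beside 27.3% of all tested genes called higher and 27.3% called lower (51.4% and 14.7% with total count scaling). In c2.5 they were the tested oxidases other than GA20ox2, beside 24.9% called higher and 25.1% called lower (53.1% and 13.3% with total count scaling). Neither exception is shown to be particular to a line, since the direct test between the lines did not call either gene.

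Most of the other gibberellin pathway genes tested did not pass the threshold. Of a list of 10 (early synthesis enzymes, other 2-oxidases, receptors, the DELLA repressor and a gibberellin-responsive gene), 9 had a row and 6 had enough counts to test. In both lines together 1 rose, 1 fell and 4 did not pass (edgeR, adjusted p under 0.05), against 57.1% of all tested genes called. The median log2 change was 0.10 over the 6 tested and 0.01 over all tested genes. Solyc02g089350.3 rose, with 89.6 ± 6.75 normalized CPM in c2.11, 101 ± 10.9 in c2.5 and 57.5 ± 7.34 in WT (SD, n = 3 libraries each, edgeR adjusted p = 4.63e-05). Solyc04g083160.2 fell, by 0.64 on the log2 scale (edgeR adjusted p = 5.81e-05). The identifiers were paired with the list from general knowledge, and the files do not state what these 2 genes encode.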

How the data were processed

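The authors deposited raw counts per gene with a column for each library. The submitters' processing notes name featureCounts and FastQC, with no version. For the aligner, build, annotation and strandedness of counting, details are not given in the sources, and reads of overlapping or near-identical genes may be mixed. Per the labels' protocols, stranded mRNA libraries were sequenced in paired reads of 150 bases. The members, lists and tests were chosen with earlier results of these data known. The 10 genes were taken by identifier, and each was paired with a symbol of the RefSeq table (SLM_r2.1). For GA20ox2, GA20ox3 and GA3ox2 the paired symbols were 20ox-2, 20ox-3 and 3OH-2, not the names used here. The paired symbol lay on the chromosome its identifier carries for 10 of 10. The table holds no such identifiers, so a matching chromosome does not prove a pairing, and that of GA3ox2 with 3OH-2 is an assumption. For 16 of the 21 listed marker, pathway and target genes the table gave a symbol on the matching chromosome.

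Genes were kept by filterByExpr (0.495 CPM in at least 3 libraries and 15 counts in all), which left 19358. The test was edgeR 4.0.16 under R 4.3.3 (TMM scaling, robust quasi-likelihood fit over all 9 libraries), with a threshold of 0.05 on the Benjamini-Hochberg adjusted p over all tested genes. A standard error is the log2 fold change divided by the square root of F, and 95% intervals use the fit's degrees of freedom. Normalized CPM are CPM on the TMM-scaled library size. The fit was also run on simulated counts in which few genes changed. That run does not test the scaling of these data, where calls were frequent. Every one of the 10 genes is named, and of the pathway list at most 2 identifiers per direction. INO, SUT1, CD1, CD2, MIXTA-like, CER6, MBP3, TAGL1, AGL11 and TAG1 were named after their values were seen. No library duplicated another of its genotype (their counts differed by a chi-square over degrees of freedom of at least 4.43). Alternatives were DESeq2 1.42.0, other scalings, other filters, fits on fewer genotypes, a replicate block, a 2-fold minimum and removal of each library.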

Additional observations from a re-analysis of the deposited data

How the results depend on the processing

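For both lines together the number of oxidases called was 8 and stayed at 7 or 8 over the scaling, filter, DESeq2, replicate block and removal alternatives, and a 2-fold minimum left 6. In c2.11 and in c2.5 the number was 7, with 6 to 8 without single libraries and 6 and 5 with the 2-fold minimum. No oxidase changed direction against WT in any alternative. Total count scaling moved the median log2 change of all tested genes to 0.29, against 0.01 with TMM, and kept all 8 directions. Between the lines 0 oxidases were called in every alternative. Uncalled differences of c2.11 minus c2.5 changed sign for GA2ox2 (0.02, but -0.054 with the replicate block and -0.83 to 0.34 without single libraries, negative when c2.11 replicate 1 or c2.5 replicate 3 was removed), GA3ox1 (0.25, but -0.051 to 0.52 without single libraries, negative without replicate 2 of either line) and GA2ox5 (0.07, but -0.033 to 0.19 without single libraries, negative without c2.5 replicate 1).

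Over all genes, the 2-fold minimum left 2790 of 11052 calls for both lines together, 2885 of 10569 for c2.11, 2638 of 9667 for c2.5 and 95 of 249 between the lines. DESeq2 gave 442 in place of the 249, a fit without WT gave 626, and removals of 1 library gave 70 to 356. The 2 calls of the pathway list became 4 with total count scaling and 0 with the 2-fold minimum, and 2 to 3 without single libraries. The cause of these moves was not tested, beyond the rule itself for the 2-fold minimum. Same-numbered libraries of different genotypes were not treated as paired in the main fit. Their deviations from the genotype mean correlated at -0.27 to 0.23, and those of differently numbered libraries at -0.26 to 0.35. Of 9 libraries, 3 correlated best with their own number. With 3 libraries per genotype, these correlations cannot decide whether the numbers mark pairs. The replicate block changed no call of an oxidase and left 8 called in both lines together. GA20ox2, GA3ox1 and GA2ox2 had under 100 counts in each library, and GA20ox4 and GA3ox2 were too scarce to test.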
